A study of Mus musculus with 24 samples.

Results

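Expression of genes for mitosis and the mitotic spindle was described in mouse embryo jaws that lacked the TGF-beta receptor gene Tgfbr2 in neural crest cells, against control littermates. The set had 36 listed genes, chosen for their textbook roles between entry into mitosis and cytokinesis, with earlier results of these data known. A probe set with a single gene symbol was found for 35 of them, and each gene was read from its brightest probe set over the 24 arrays; the cyclin gene Ccnb1 was not analysed here. These 35 genes were among 18193 named genes on the array, and all 35 passed the filter on dim probe sets that left 12811 genes for testing, being above the array median in all 24 arrays.

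The samples were pieces of maxilla (upper jaw) and mandible (lower jaw) from C57B6 embryos at embryonic day 14.5 (E14.5), each cut into a distal and a proximal end. Mutants came from a cross of Wnt1-Cre;Tgfbr2 fl/+ with Tgfbr2 fl/fl mice and were picked out by a cleft palate and a defect of the skull vault. Controls were littermates of the same cross, with no further genotype in the labels. The 8 groups (genotype by jaw by end) held 3 arrays each. Wnt1-Cre acts in neural crest, so epithelium, vessels, muscle fibres and blood cells of a piece keep the receptor. In the maxilla, 3 mutant arrays (distal 1, proximal 1 and proximal 2) were low in genes of olfactory and nasal epithelium. Control distal maxilla array 2 was also low. The mean deviation of these genes from their own means was 0.17 in it, against 1.84 and 1.74 in control arrays 1 and 3. Mutant distal maxilla array 2 stood at 0.46. Both of these arrays were kept, so only mutant arrays were removed. Differences in the proximal maxilla are also given without the 3 mutant arrays. Only mutant array 3 is then left in that group, so these are sizes without a test. The labels do not say that replicates came from separate embryos, and the spread behind each p-value, that between these samples only, may be technical.

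Cells enter mitosis when the kinase Cdk1, bound to A- and B-type cyclins and released by Cdc25 phosphatases, phosphorylates its targets. Condensin and topoisomerase II then compact the chromosomes, kinetochores attach them to spindle microtubules, and a checkpoint holds the anaphase-promoting complex until every kinetochore is attached. Genes for these steps are transcribed together in G2 and mitosis and are low in resting cells, so their RNA in a tissue is widely used as a readout of the share of dividing cells. Mesenchyme of the jaws divides actively at this stage. In such bulk pieces fewer dividing cells and less RNA per dividing cell cannot be told apart.

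Many promoters of such genes carry a cell cycle homology region (CHR, here TTTGAA or TTCGAA), bound by the MuvB complex, and CCAAT boxes, bound by NF-Y; others carry E2F sites (here TTCCCGC or TTGGCGC). Promoter windows from 250 bases before to 50 after the transcription start were available from RefSeq for 29 of the 35 genes and were searched for exact matches on both strands. A CHR was present in 24 of the 29 windows (82.8%), against 3175 of all 17491 windows (18.2%) and 13.5% of windows of tested genes. A CCAAT box was present in 22 (75.9%, against 39.0% of all windows), both motifs in 21 (72.4%, against 7.43%) and an E2F site in 5 (17.2%, against 8.79% of all windows and 12.2% of those of tested genes). A match is a description of the letters and not a site. Shown are the windows of 6 genes that had among the smallest p-values over the average of the 4 regions, read 5′ to 3′ along the gene's strand in assembly GRCm38.p6, with motif matches in capitals. They lie at chr6:125191537-125191836 (minus strand) for Ncapd2, chr1:189688037-189688336 (minus strand) for Cenpf, chr3:135212313-135212612 (plus strand) for Cenpe, chr15:102296043-102296342 (plus strand) for Espl1, chr3:27153829-27154128 (minus strand) for Ect2 and chr11:99024140-99024439 (minus strand) for Top2a.

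Ncapd2: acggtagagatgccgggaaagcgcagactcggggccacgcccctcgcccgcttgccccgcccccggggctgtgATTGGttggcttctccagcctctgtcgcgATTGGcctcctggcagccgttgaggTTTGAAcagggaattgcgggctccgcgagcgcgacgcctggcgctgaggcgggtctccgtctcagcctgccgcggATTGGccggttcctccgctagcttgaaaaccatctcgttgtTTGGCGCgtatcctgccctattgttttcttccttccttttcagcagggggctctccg
Cenpf: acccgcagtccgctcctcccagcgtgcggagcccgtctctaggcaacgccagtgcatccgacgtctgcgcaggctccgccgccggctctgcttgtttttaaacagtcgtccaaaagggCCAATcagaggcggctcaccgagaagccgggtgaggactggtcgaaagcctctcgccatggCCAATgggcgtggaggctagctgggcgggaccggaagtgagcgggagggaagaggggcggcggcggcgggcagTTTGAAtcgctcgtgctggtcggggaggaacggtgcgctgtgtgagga
Cenpe: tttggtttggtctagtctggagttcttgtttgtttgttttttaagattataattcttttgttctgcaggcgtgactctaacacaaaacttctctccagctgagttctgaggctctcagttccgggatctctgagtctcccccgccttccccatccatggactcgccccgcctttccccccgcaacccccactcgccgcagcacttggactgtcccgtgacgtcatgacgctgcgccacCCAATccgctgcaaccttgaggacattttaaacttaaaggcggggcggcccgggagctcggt
Espl1: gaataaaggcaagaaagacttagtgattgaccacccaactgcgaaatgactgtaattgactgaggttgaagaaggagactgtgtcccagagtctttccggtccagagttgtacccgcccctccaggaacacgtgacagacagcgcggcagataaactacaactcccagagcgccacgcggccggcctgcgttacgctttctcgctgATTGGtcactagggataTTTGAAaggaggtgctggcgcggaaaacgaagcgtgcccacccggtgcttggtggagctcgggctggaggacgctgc
Ect2: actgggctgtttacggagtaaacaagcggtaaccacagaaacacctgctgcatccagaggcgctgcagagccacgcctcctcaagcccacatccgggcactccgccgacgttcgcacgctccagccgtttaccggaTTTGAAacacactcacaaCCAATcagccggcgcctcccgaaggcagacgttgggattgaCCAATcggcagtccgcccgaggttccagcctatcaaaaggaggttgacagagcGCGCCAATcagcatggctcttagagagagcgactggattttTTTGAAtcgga
Top2a: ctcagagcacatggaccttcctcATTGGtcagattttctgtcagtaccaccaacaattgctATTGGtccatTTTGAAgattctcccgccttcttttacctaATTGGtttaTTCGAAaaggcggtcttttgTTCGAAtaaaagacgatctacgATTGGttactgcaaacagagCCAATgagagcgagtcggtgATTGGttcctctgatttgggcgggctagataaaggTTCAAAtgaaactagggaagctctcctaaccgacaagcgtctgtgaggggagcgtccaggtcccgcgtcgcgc

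The separase gene Espl1 has a CCAAT box 44 bases and a CHR 27 bases before the start. The condensin gene Ncapd2 has 3 CCAAT boxes, a CHR 123 bases before the start and an E2F site 7 bases before it. Cenpf has a CHR 2 bases after the start and 2 CCAAT boxes before it. Cenpe has a single CCAAT box 12 bases before the start and no CHR in this window. Ect2 has 2 CHR and 3 CCAAT boxes, 1 of which overlaps an E2F site at the start. Top2a has 4 CHR and 6 CCAAT boxes.

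All 35 genes had a lower mean in mutant than in control in each of the 4 regions, where 13% of the 12811 tested genes were below 0 in all 4 and 53% (distal maxilla), 48.3% (proximal maxilla), 41.6% (distal mandible) and 58.8% (proximal mandible) in single regions. These counts below 0 were 27 in the proximal maxilla with nasal and muscle marker means as covariates, and 31 to 34 in the distal mandible with 1 of its arrays left out. The differences were small in size, and the number that passed the test differed by region. Values are log2 units, differences are mutant minus control with the standard error of the limma fit (n = 3 arrays per group), and a gene is called at an adjusted p under 0.05 from limma with Benjamini-Hochberg adjustment over all genes tested. In the proximal mandible 25 of the 35 fell, against 3.07% of all genes called lower, 33 of the 35 had an unadjusted p under 0.05 (13.5% of all genes), and the median difference was −0.33 (range −0.51 to −0.14; median of all genes −0.04). The proximal maxilla had 10 that fell, against 11.1% of all genes called lower there, and 18 at an unadjusted p under 0.05 (16.8%), with a median of −0.18 (range −0.48 to −0.02; all genes 0.01). Without the 3 mutant arrays low in nasal markers only mutant array 3 is left there, and the median was −0.16. With nasal and muscle marker means as covariates limma called 0 of the 35 and 4 of all 12811 genes there, with a median of −0.065 for the 35. In the distal maxilla limma called 0 of the 35, against 0.0859% of all genes, while 27 had an unadjusted p under 0.05 (5.28% of all genes were lower by that measure) and the median was −0.22 (range −0.41 to −0.07). For the distal mandible limma called 0, against 0.468% of all genes, 7 had an unadjusted p under 0.05 (5.52% of all genes), and the median was −0.11 (range −0.25 to −0.00). With the replicate number as a block, limma called 33 of the 35 in the proximal mandible, adding Cdc25c, Plk1, Mad2l1, Ttk, Kif2c, Tpx2, Nusap1 and Nuf2. It called 2 in the distal mandible, Ncapd2 (adjusted p = 0.0228) and Smc2 (adjusted p = 0.0406). The share of all genes called in the blocked fit is not given here, so the added calls are not read as particular to the set.

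**Figure D1:**
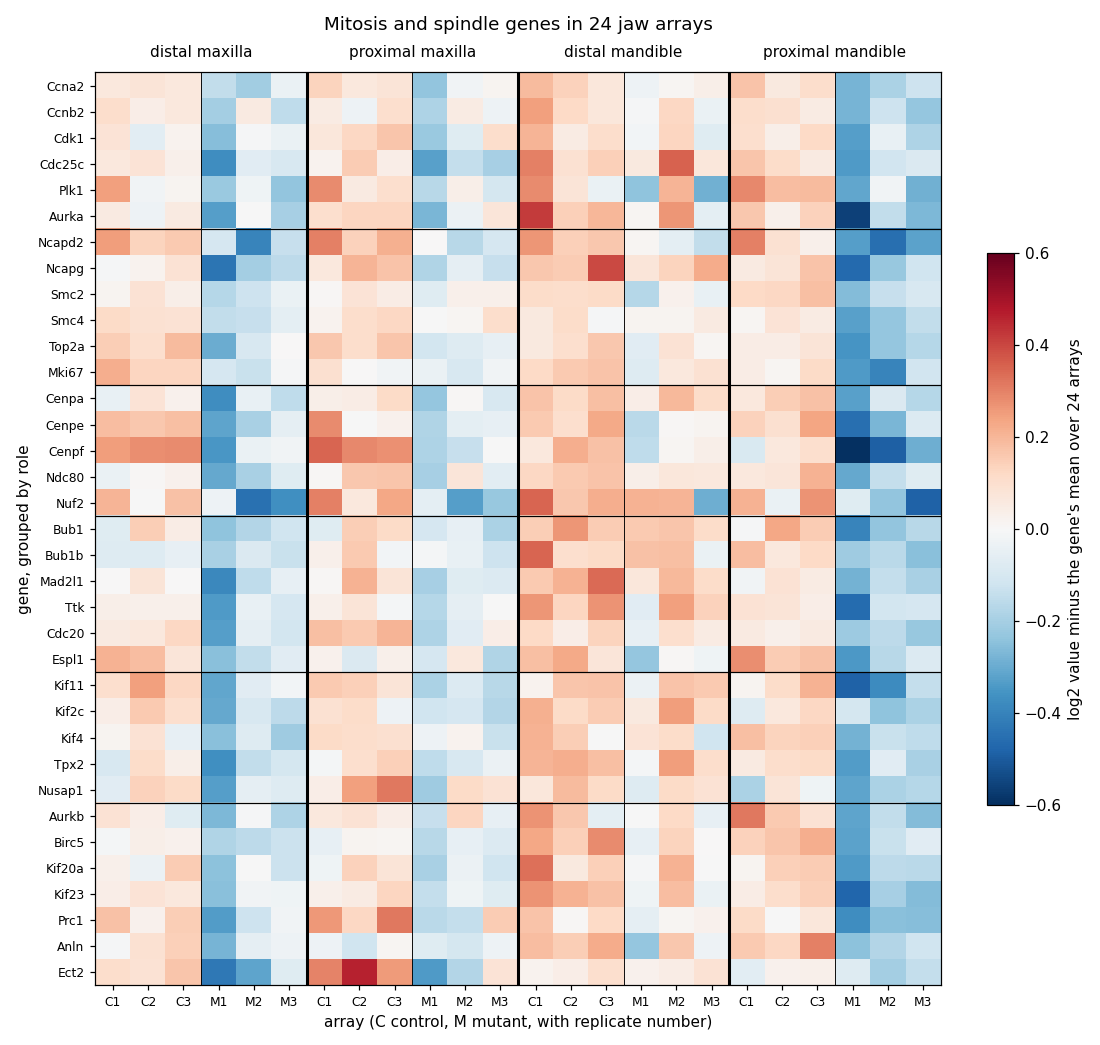
Each row is 1 of the 35 genes, grouped by role from entry into mitosis at the top to cytokinesis at the bottom, and each column 1 of 24 arrays; colour is the log2 value minus the gene's mean over all arrays, cut at ±0.6. Mutant proximal mandible arrays (M1 to M3 at the right) are blue in most rows, and mutant distal mandible arrays are paler, with means of −0.02, 0.13 and 0.01.

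The same picture was seen array by array. The mean deviation of the 35 genes from their own means lay between 0.07 and 0.08 in the 3 control distal maxilla arrays, between 0.10 and 0.11 in control proximal maxilla, between 0.13 and 0.19 in control distal mandible and between 0.09 and 0.13 in control proximal mandible. Mutant arrays 1, 2 and 3 stood at −0.27, −0.12 and −0.10 in the distal maxilla, at −0.15, −0.05 and −0.05 in the proximal maxilla, at −0.02, 0.13 and 0.01 in the distal mandible and at −0.33, −0.19 and −0.18 in the proximal mandible. The mutant array numbered 1 was the lowest of its group in each region. Genotypes did not overlap in these means in any region; they came closest in the distal mandible, where mutant array 2 and control array 2 were both at 0.13.

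Single genes were separate between genotypes to different extents. All mutant values lay below all control values for 34 of the 35 genes in the proximal mandible (15.4% of all genes), 20 in the proximal maxilla (16.7%), 29 in the distal maxilla (5.83%) and 9 in the distal mandible (8.91%). Ccna2, Cenpe, Cenpf and Ncapd2 were separate in all 4 regions, against 0.39% of all genes, and 23 of the 35 in at least 3 regions, against 2.26%. The difference was most negative in the proximal mandible for 30 of the 35, in the proximal maxilla for 3, in the distal maxilla for 2 and in the distal mandible for 0.

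**Figure D2:**
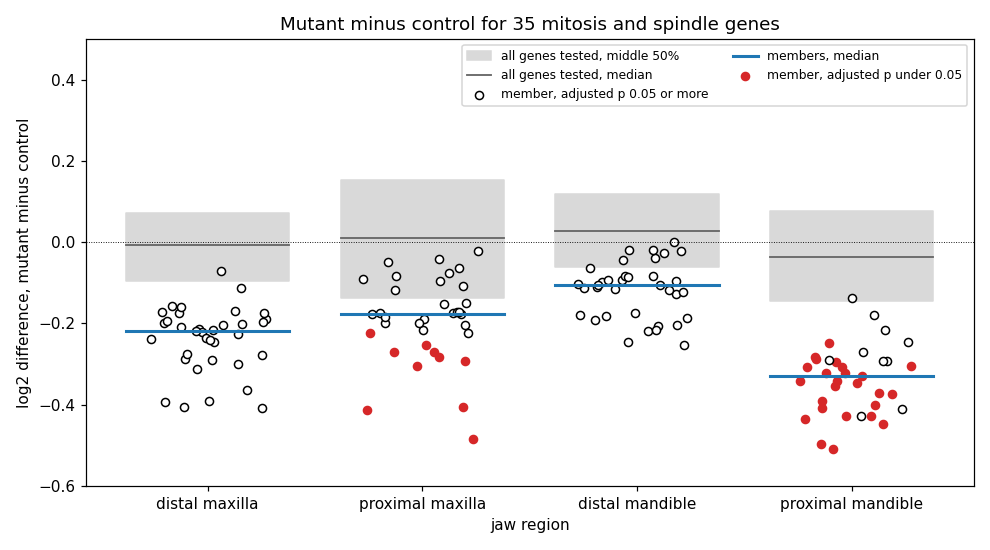
Log2 difference, mutant minus control, for each of the 35 genes (points) in the 4 jaw regions; filled points had a limma adjusted p under 0.05, blue lines are medians of the 35, and grey bands and lines the middle 50% and median of all 12811 genes. All points lie below 0, with 25 filled in the proximal mandible, 10 in the proximal maxilla and 0 in both distal pieces.

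Among genes for entry into mitosis, 3 of 6 fell in the proximal mandible and 1 in the proximal maxilla. Cyclin A2, encoded by Ccna2, activates Cdk1 and Cdk2 before and in early mitosis; the gene read 12.02, 11.91 and 11.96 in control and 11.58, 11.66 and 11.73 in mutant proximal mandible, a difference of −0.31 ± 0.06, adjusted p = 0.0121. It was separate between genotypes in the other 3 regions as well, with differences of −0.20 in the distal maxilla, −0.17 in the proximal maxilla and −0.13 in the distal mandible, none of them called. Ccnb2, a B-type cyclin, read 11.40, 11.39 and 11.34 in control against 11.01, 11.17 and 11.06 in mutant proximal mandible (−0.30 ± 0.07, adjusted p = 0.0318). Aurka, the kinase that matures centrosomes, read 10.15, 10.02 and 10.12 against 9.43, 9.84 and 9.72 there (−0.44 ± 0.11, adjusted p = 0.0366), a wider spread among mutants than for the cyclins. Cdc25c, a phosphatase that activates Cdk1, fell in the proximal maxilla instead, from 8.39, 8.52 and 8.41 to 8.05, 8.23 and 8.17 (−0.29 ± 0.09, adjusted p = 0.0306). Its difference in the proximal mandible was of like size, −0.29, with an adjusted p of 0.0836. Cdk1 itself was not called in any region and differed by −0.27 (adjusted p = 0.0901) in the proximal mandible. The polo-like kinase gene Plk1 differed by −0.43 there, short of the threshold at an adjusted p of 0.0551.

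The condensin and chromosome genes were the role group in which every gene fell in the proximal mandible, 6 of 6, with 3 of 6 in the proximal maxilla. Ncapd2 encodes a regulatory subunit of condensin I, and had the most negative difference of the 35 in the proximal mandible. It read 10.89, 10.68 and 10.62 in control and 10.26, 10.13 and 10.27 in mutant arrays, a difference of −0.51 ± 0.08, adjusted p = 0.00285, so that the signal dropped by 29.7%. It fell in the proximal maxilla too, from 10.89, 10.73 and 10.80 to 10.59, 10.42 and 10.49 (−0.31 ± 0.08, adjusted p = 0.0127). Neither distal piece passed: the values were 10.84, 10.72 and 10.74 against 10.49, 10.19 and 10.45 in the distal maxilla (−0.39 ± 0.08, adjusted p = 0.0686), and 10.85, 10.73 and 10.75 against 10.60, 10.53 and 10.44 in the distal mandible (−0.25 ± 0.08, adjusted p = 0.185). Control and mutant arrays were nonetheless separate in all 4.

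Ncapg, another condensin I subunit, read 9.58, 9.60 and 9.70 against 9.06, 9.30 and 9.41 in the proximal mandible (−0.37 ± 0.09, adjusted p = 0.0251). Proximal maxilla values of Ncapg were 9.59, 9.73 and 9.70 against 9.35, 9.48 and 9.39 (−0.27 ± 0.09, adjusted p = 0.0351). Smc2 and Smc4 encode the core pair of condensin ATPases and were called in the proximal mandible alone. Smc2 read 12.27, 12.27 and 12.33 against 11.89, 12.01 and 12.05 (−0.31 ± 0.06, adjusted p = 0.00684). Smc4 read 11.98, 12.05 and 12.02 against 11.64, 11.74 and 11.82 (−0.28 ± 0.05, adjusted p = 0.00606). Their differences in the proximal maxilla were −0.05 and −0.04. Top2a, which untangles sister chromatids, fell in both proximal pieces. Its values were 12.37, 12.37 and 12.40 against 11.97, 12.09 and 12.15 in the proximal mandible (−0.31 ± 0.07, adjusted p = 0.014). They were 12.48, 12.43 and 12.49 against 12.21, 12.24 and 12.27 in the proximal maxilla (−0.22 ± 0.07, adjusted p = 0.0201), where mutant arrays lay close together. Mki67, whose protein coats mitotic chromosomes and is the common stain for dividing cells, read 12.19, 12.16 and 12.26 against 11.80, 11.75 and 12.03 in the proximal mandible (−0.34 ± 0.07, adjusted p = 0.00947). Its difference in the proximal maxilla was −0.08, with an adjusted p of 0.449.

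Of 5 centromere and kinetochore genes 4 fell in the proximal mandible and 2 in the proximal maxilla. Cenpf, a large kinetochore protein that appears in G2, read 10.74, 10.90 and 10.93 in control and 10.20, 10.34 and 10.54 in mutant proximal mandible, a difference of −0.50 ± 0.09, adjusted p = 0.00685. Cenpf in the proximal maxilla read 11.18, 11.12 and 11.11 against 10.65, 10.69 and 10.83 (−0.41 ± 0.09, adjusted p = 0.00416), with no overlap of genotypes. In the distal maxilla Cenpf had the most negative difference of the 35, from 11.09, 11.11 and 11.12 to 10.48, 10.79 and 10.81, −0.41 ± 0.09, but an adjusted p of 0.0872, and mutant array 1 was far below the other 2. Cenpe, the kinesin that moves chromosomes to the spindle equator, read 10.38, 10.34 and 10.48 against 9.79, 9.96 and 10.16 in the proximal mandible (−0.43 ± 0.09, adjusted p = 0.0146). Cenpa, the histone H3 variant that marks centromeres, read 11.92, 12.01 and 12.03 against 11.53, 11.77 and 11.69 (−0.32 ± 0.08, adjusted p = 0.0298). Ndc80 and Nuf2 encode partners in the complex that binds microtubule ends, and each was called in 1 region. Ndc80 read 9.07, 9.08 and 9.22 against 8.70, 8.87 and 8.94 in the proximal mandible (−0.29 ± 0.08, adjusted p = 0.0377). Nuf2 read 10.23, 9.99 and 10.16 against 9.87, 9.59 and 9.70 in the proximal maxilla (−0.41 ± 0.14, adjusted p = 0.0451). Nuf2 differed by −0.41 in the proximal mandible and by −0.41 in the distal maxilla (10.13, 9.92 and 10.10 against 9.90, 9.48 and 9.56), sizes like that of the called region with adjusted p of 0.106 and 0.345.

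Of 6 checkpoint and anaphase genes 4 fell in the proximal mandible and 1 in the proximal maxilla. Bub1, a checkpoint kinase at kinetochores, read 10.97, 11.21 and 11.13 against 10.58, 10.74 and 10.81 in the proximal mandible (−0.39 ± 0.08, adjusted p = 0.01). Bub1b, whose protein BubR1 inhibits the anaphase-promoting complex, read 10.71, 10.59 and 10.65 against 10.32, 10.37 and 10.28 (−0.33 ± 0.07, adjusted p = 0.0155). Cdc20, the activator of that complex which the checkpoint holds back, was called in both proximal pieces. It read 12.23, 12.21 and 12.22 against 11.95, 12.01 and 11.94 in the proximal mandible (−0.25 ± 0.07, adjusted p = 0.0414) and 12.35, 12.33 and 12.38 against 11.99, 12.10 and 12.21 in the proximal maxilla (−0.25 ± 0.07, adjusted p = 0.0107). Espl1 encodes separase, the protease that opens the cohesin ring at anaphase. It read 9.89, 9.76 and 9.78 against 9.26, 9.44 and 9.52 in the proximal mandible (−0.40 ± 0.08, adjusted p = 0.0118). Within the distal mandible, where limma called 0 of the 35, Espl1 had the second most negative difference, from 9.79, 9.83 and 9.68 to 9.37, 9.61 and 9.58 (−0.25 ± 0.08, adjusted p = 0.197). The checkpoint genes Mad2l1 and Ttk were not called in any region; in the proximal mandible they differed by −0.24 (adjusted p = 0.0798) and −0.29 (adjusted p = 0.0866).

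Of 5 spindle microtubule genes 2 fell in the proximal mandible and 1 in the proximal maxilla. Kif11, the kinesin that pushes spindle poles apart, read 9.88, 9.97 and 10.07 in control and 9.38, 9.48 and 9.72 in mutant proximal mandible (−0.45 ± 0.09, adjusted p = 0.0108). It read 10.02, 10.002 and 9.94 against 9.67, 9.78 and 9.69 in the proximal maxilla (−0.27 ± 0.09, adjusted p = 0.0368). Kif11 values overlapped in the distal mandible, 9.88, 10.03 and 10.03 against 9.83, 10.03 and 10.02, with a difference of −0.02. Kif4, a chromosome-borne kinesin, read 9.99, 9.94 and 9.95 against 9.53, 9.67 and 9.66 in the proximal mandible (−0.34 ± 0.07, adjusted p = 0.0121). Tpx2, which activates Aurora A on the spindle, differed by −0.29 there with an adjusted p of 0.0502. Kif2c, a microtubule depolymerase, differed by −0.22 (adjusted p = 0.0798). Nusap1, which bundles spindle microtubules, was the single gene whose genotypes overlapped in the proximal mandible, at 11.46, 11.72 and 11.62 in control and 11.33, 11.46 and 11.47 in mutant arrays (−0.18 ± 0.10, adjusted p = 0.354).

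Of 7 genes for the chromosomal passenger complex, the spindle midzone and cytokinesis, 6 fell in the proximal mandible and 2 in the proximal maxilla. Aurkb, the kinase of the passenger complex, read 10.33, 10.17 and 10.10 against 9.70, 9.86 and 9.75 in the proximal mandible (−0.43 ± 0.09, adjusted p = 0.015). Its partner Birc5, encoding survivin, read 11.81, 11.84 and 11.89 against 11.35, 11.54 and 11.61 (−0.35 ± 0.06, adjusted p = 0.00552). Birc5 was also the gene with the smallest adjusted p of the set in the distal mandible, 0.182, at 11.90, 11.82 and 11.96 against 11.62, 11.80 and 11.67 (−0.19 ± 0.06). The midzone kinesins Kif23 and Kif20a were both called in the proximal mandible. Kif23 read 10.32, 10.38 and 10.42 against 9.80, 10.08 and 10.01 (−0.41 ± 0.08, adjusted p = 0.0072). Kif20a read 10.28, 10.40 and 10.41 against 9.92, 10.10 and 10.10 (−0.32 ± 0.09, adjusted p = 0.0407). Prc1, which crosslinks midzone microtubules, fell in both proximal pieces, but in the proximal maxilla its genotypes overlapped. It read 11.05, 10.93 and 10.999 against 10.56, 10.68 and 10.68 in the proximal mandible (−0.35 ± 0.09, adjusted p = 0.0279) and 11.19, 11.06 and 11.25 against 10.77, 10.79 and 11.09 in the proximal maxilla (−0.28 ± 0.09, adjusted p = 0.025). Anln, the anillin scaffold of the contractile ring, read 11.39, 11.36 and 11.54 against 10.99, 11.06 and 11.12 in the proximal mandible (−0.37 ± 0.08, adjusted p = 0.0195). Anln was the third most negative in the distal mandible, at 11.42, 11.39 and 11.46 against 11.01, 11.40 and 11.21 (−0.22 ± 0.08, adjusted p = 0.276), with overlap.

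Ect2, the exchange factor that activates RhoA to place the cleavage furrow, behaved differently between jaws. In the proximal maxilla it had the most negative difference of the 35, from 10.95, 11.12 and 10.91 to 10.32, 10.48 and 10.74 (−0.48 ± 0.09, adjusted p = 0.00148). In the distal maxilla it read 10.76, 10.74 and 10.82 against 10.23, 10.34 and 10.58 (−0.39 ± 0.09, adjusted p = 0.103). Control and mutant values overlapped in the distal mandible, at 10.68, 10.70 and 10.76 and 10.68, 10.70 and 10.74 (difference −0.00). Where most of the set fell, in the proximal mandible, Ect2 read 10.59, 10.68 and 10.69 against 10.58, 10.45 and 10.52 (−0.14 ± 0.09, adjusted p = 0.443). The difference of the mutant effect between jaws, mandible minus maxilla averaged over ends, was 0.37 ± 0.09 (limma interaction contrast, adjusted p = 0.0242), and Ect2 was the single gene of the 35 called in that contrast, where 3.93% of all genes were called higher and 4.33% lower. That contrast took pieces that may share an embryo as independent. Without the 3 mutant maxilla arrays that were low in nasal markers (distal 1, proximal 1 and 2) the difference was 0.22, with only mutant array 3 left in the proximal maxilla. With nasal and muscle marker means as covariates it was 0.10 with an adjusted p of 0.716.

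**Figure D3:**
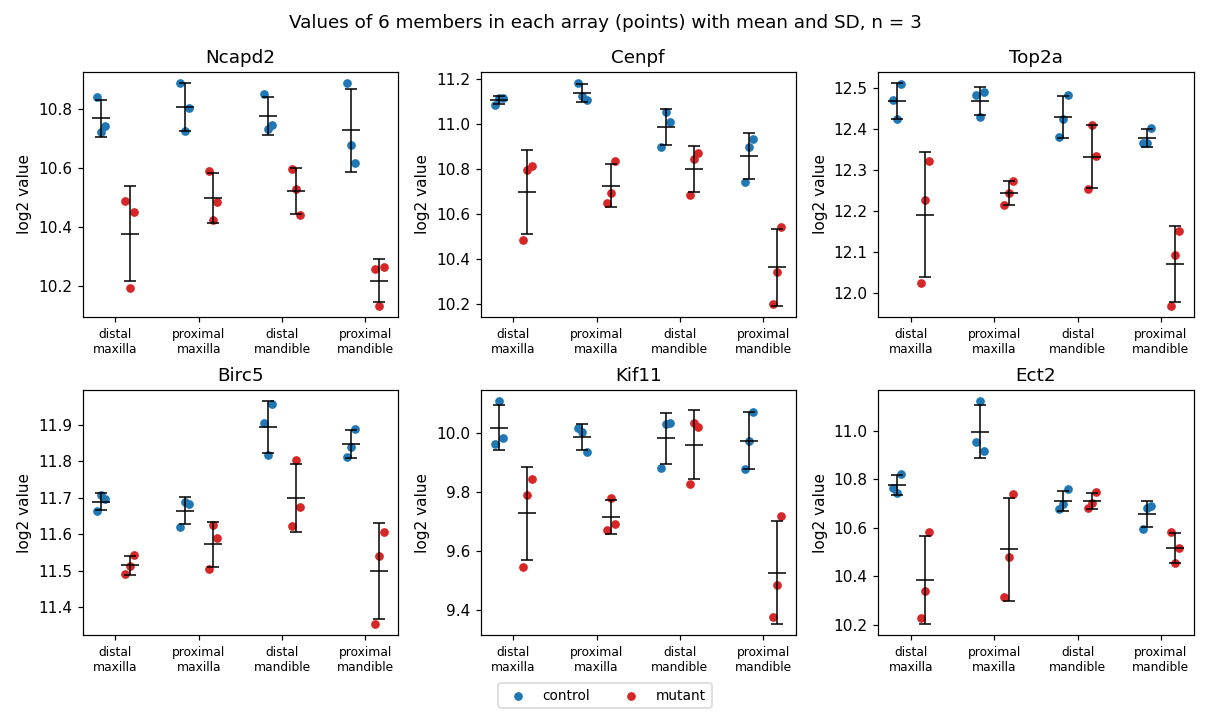
Log2 values of Ncapd2, Cenpf, Top2a, Birc5, Kif11 and Ect2 in each array (points; blue control, red mutant) by jaw region, with the mean and SD of 3 arrays in black. Ncapd2 and Cenpf mutant points lie below all control points in each region, and those of Ect2 do so in both maxilla pieces and the proximal mandible but not in the distal mandible.

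No other region difference of the set was called. For the difference of the mutant effect between ends, distal minus proximal, limma called 0 of the 35 and 0 of all genes (0% in both directions); 1 of the 35 had an unadjusted p under 0.05 (4% of all genes higher by that measure), Kif11, at 0.20 ± 0.09. A moderated F test over all 4 regions called 0 of the 35, against 4.43% of all genes, with 6 at an unadjusted p under 0.05 (22.8% of all genes) and the smallest adjusted p for Smc4 (0.0718) and Ect2 (0.0733). The difference between the ends of the mandible alone was not tested. Both proximal pieces called 7 genes in common: Cdc20, Cenpf, Kif11, Ncapd2, Ncapg, Prc1 and Top2a, against 0.757% of all genes called lower in 2 or more regions. Another 21 genes were called in 1 region, so that 28 were called in at least 1 (13.8% of all genes), and 7 (Cdk1, Plk1, Mad2l1, Ttk, Kif2c, Tpx2 and Nusap1) in none. Of the 28, Cdc25c, Nuf2 and Ect2 were called in the proximal maxilla alone. With nasal and muscle marker means as covariates 0 of the 35 were called in the proximal maxilla, so the overlap of the proximal pieces rests on the fit without them.

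When the 4 pieces of 1 genotype with the same number were averaged to 1 value, leaving 3 mutant and 3 control units, limma called 0 of the 35 (0.39% of all genes were called lower) although all 35 were below 0 (51.4% of all genes) and 33 had an unadjusted p under 0.05 (8.29% of all genes). Mutant and control units were separate for 33 genes (10.8% of all genes). The median difference was −0.20 (range −0.38 to −0.14). Ncapd2 had the smallest adjusted p (−0.37 ± 0.07, adjusted p = 0.0692), followed by Cenpf (−0.38 ± 0.08, adjusted p = 0.0831), Cenpe (−0.30 ± 0.07, adjusted p = 0.121), Espl1 (−0.26 ± 0.06, adjusted p = 0.125), Ect2 (−0.25 ± 0.07, adjusted p = 0.132) and Top2a (−0.23 ± 0.06, adjusted p = 0.137). Treating the 24 arrays as separate samples called all 35, and that count takes 4 pieces that may share an embryo as independent. It stands without the share of all genes called in the same fit.

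Control jaws were compared with each other with each array as a separate sample. Pieces that may share an embryo were thus taken as independent. Between control mandible and maxilla, averaged over ends, limma called 5 of the 35, against 16.9% of all genes higher and 19.4% lower in mandible. Birc5 (0.19 ± 0.04, adjusted p = 0.00217), Bub1b (0.16 ± 0.05, adjusted p = 0.0197) and Anln (0.18 ± 0.06, adjusted p = 0.0285) were higher in control mandible. Ect2 (−0.20 ± 0.07, adjusted p = 0.0201) and Cenpf (−0.20 ± 0.07, adjusted p = 0.0226) were lower there. Birc5 was separate, at 11.66, 11.71 and 11.70 in distal and 11.62, 11.69 and 11.68 in proximal control maxilla against 11.90, 11.82 and 11.96 and 11.81, 11.84 and 11.89 in the mandible pieces. With nasal and muscle marker means as covariates 0 of the 5 were called, and Cenpf and Ect2 changed sign (0.09 and 0.19). Between control distal and proximal ends limma called 0 of the 35 (5% of all genes higher in distal, 3.5% lower) and 1 had an unadjusted p under 0.05 (11.4% of all genes higher in distal), Mki67 (0.11 ± 0.05, adjusted p = 0.162).

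Other probe sets of the same genes gave a second reading. Of 29 further probe sets (21 genes) that passed the filter, 28 were below 0 in the proximal mandible and 25 in each of the other 3 regions. Called lower were 8 in the proximal mandible, 2 in the proximal maxilla and 0 in the distal pieces. The share of all 22060 probe sets called lower in that fit is not given here. In the fit of genes 3.07% were called lower in the proximal mandible and 11.1% in the proximal maxilla. The 2 in the proximal maxilla are therefore not read as a result. Median differences of the 29 were −0.37 (proximal mandible), −0.22 (proximal maxilla), −0.16 (distal maxilla) and −0.13 (distal mandible). Called in the proximal mandible were second probe sets for Ccna2 (−0.42 ± 0.07, adjusted p = 0.003), Bub1b (−0.43 ± 0.07, adjusted p = 0.00404), Kif11 (−0.50 ± 0.10, adjusted p = 0.0121), Prc1 (−0.38 ± 0.08, adjusted p = 0.0174) and Aurkb (−0.35 ± 0.08, adjusted p = 0.0251). A second probe set for Tpx2, whose brighter one missed the threshold, was called at −0.38 ± 0.10, adjusted p = 0.0497. For Bub1 the dimmer probe set was above 0 in 3 regions (0.05 ± 0.27, adjusted p = 0.987 in the distal maxilla, 0.17 ± 0.27, adjusted p = 0.739 in the proximal maxilla and 0.21 ± 0.27, adjusted p = 0.829 in the distal mandible), where the brighter one read −0.22, −0.18 and −0.04 with a standard error of 0.08.

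Other genes of mitosis and of the cell cycle, from lists chosen with earlier results of these data known, were counted region by region. Of 76 further mitotic genes 26 fell and 0 rose in the proximal mandible (median −0.30), against 3.07% of all genes called lower. In the proximal maxilla 22 fell and 0 rose (median −0.17), where 11.1% of all genes were called lower. With the nasal and muscle means as covariates limma called 0 of the 18 genes named below from that region. It called 4 of all genes tested there, against 2984 without the covariates, so the loss is not particular to these lists. Without the 3 mutant arrays only mutant array 3 is left in that region, so those differences are given without a test. Of the 76 mitotic genes 1 fell in the distal maxilla (median −0.20), against 0.0859% of all genes. In the distal mandible limma called 0 of the 76, with 3 at an unadjusted p under 0.05 (median −0.08, 5.52% of all genes lower by that measure). Racgap1, the partner of Kif23 in the centralspindlin complex, was the one that fell in the distal maxilla (−0.31 ± 0.06, adjusted p = 0.0338). Its difference there was −0.28 without the 3 arrays. With the covariates it was −0.28 with a limma adjusted p of 0.051, not called. Racgap1 also fell in both proximal pieces, by 0.39 in maxilla and by 0.36 in mandible. Among those in the proximal mandible, Tacc3, a spindle microtubule protein, fell by 0.43, Ckap2 by 0.40 and Cdca3 by 0.44. Among those in the proximal maxilla, the condensin II gene Ncapg2 fell by 0.98, the passenger complex gene Cdca8 by 0.32 and the abscission gene Cep55 by 0.44. Without the 3 arrays these differences were −0.56 for Ncapg2, −0.26 for Cdca8 and −0.20 for Cep55. With the covariates they were −0.28, −0.17 and −0.13, none called. Of 15 genes of the anaphase-promoting complex list 1 fell in the proximal maxilla, against 11.1% of all genes called lower there. It was the ubiquitin-conjugating enzyme gene Ube2s (−0.29 ± 0.09, adjusted p = 0.019). Ube2s was at −0.12 without the 3 arrays and at −0.018 with the covariates (limma adjusted p = 0.968). In the other 3 regions limma called 0 of the 15. At an unadjusted p under 0.05, 1 was lower in the distal maxilla (5.28% of all genes) and 4 were lower in the proximal mandible (13.5%). By that measure 2 were higher in the distal mandible, against 913 of all 12811 genes.

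Of 38 DNA replication and S phase genes 20 fell in the proximal mandible (median −0.27), against 3.07% of all genes called lower there. Among them were the replication licensing inhibitor Gmnn (−0.36), Dbf4 (−0.39), the ribonucleotide reductase gene Rrm2 (−0.33) and Mcm5 (−0.28). Of the 38, 5 fell in the proximal maxilla, near the 11.1% of all genes called lower there, among them Dut (−0.40), Dbf4 (−0.31) and Rrm1 (−0.23). The kinase gene Cdc7 (0.29) was the 1 that rose, and the median of the 38 was −0.06. Without the 3 arrays Dut was at −0.34, Dbf4 at −0.11, Rrm1 at −0.22 and Cdc7 at 0.35. With the nasal and muscle covariates they were at −0.18, −0.024, −0.15 and 0.28, none called. Of 23 regulators of mitotic transcription 4 fell in the proximal mandible, against the same 3.07% of all genes. They were E2f8 (−0.44), E2f2 (−0.38), Mybl2 (−0.44), the B-Myb subunit that joins MuvB, and E2f6 (−0.22). Mybl1 (−1.78) and E2f7 (−0.40) fell in the proximal maxilla, 2 of the 23, against 11.1% of all genes. Without the 3 arrays they were at −0.20 and −0.17. With nasal and muscle marker means as covariates they were at 0.43 and −0.026, neither called. Of 10 G1 cyclins and kinases 1, Ccne1, fell in the proximal mandible (−0.46), against 3.07% of all genes. In the proximal maxilla Ccnd3 (0.49) and Cdk2 (0.35) rose and Ccnd1 (−0.29) fell, against 12.2% of all genes higher and 11.1% lower. Without the 3 arrays these 3 genes were at 0.27, 0.22 and −0.11. With the covariates they were at 0.26, 0.16 and −0.088, none called. Of 17 CDK inhibitors and cell cycle exit genes 4 rose and 5 fell in the proximal maxilla, where 12.2% of all genes were called higher and 11.1% lower. The inhibitors Cdkn2b (0.93) and Cdkn1c (0.36) were higher and Gadd45a (−0.92) and Btg2 (−0.56) lower. Without the 3 arrays these 4 were at 0.57, 0.25, −0.43 and −0.29. With the covariates they were at 0.56, 0.12, −0.25 and −0.17, none called. Limma called 0 of these 17 in the proximal mandible, with 2 higher at an unadjusted p under 0.05 (764 of all 12811 genes were higher by that measure).

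**Figure D4:**
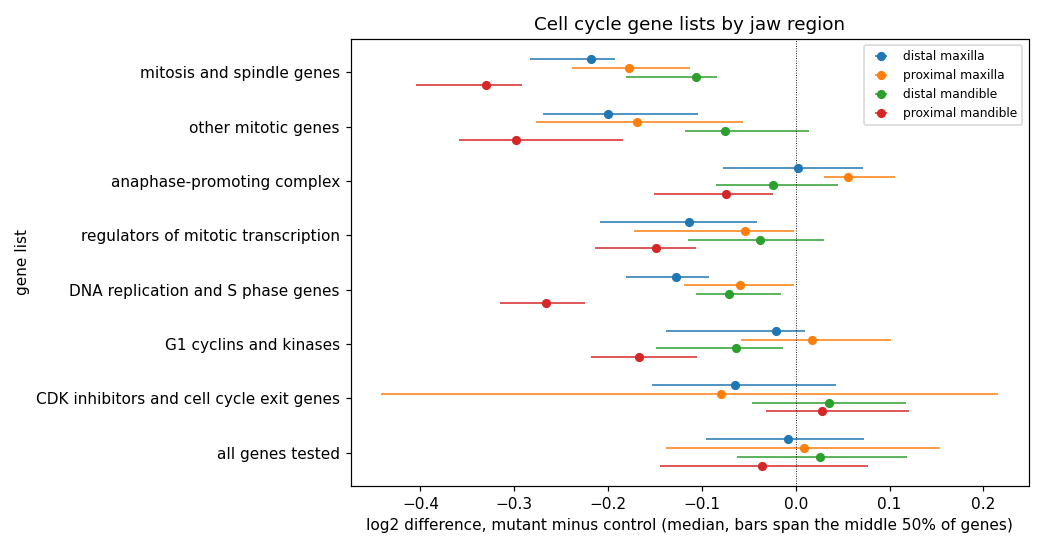
Median log2 difference, mutant minus control, of the mitosis and spindle genes, 6 other cell cycle lists and all genes tested in the 4 jaw regions (points), with bars over the middle 50% of genes. Medians of mitosis and spindle genes, other mitotic genes and DNA replication genes are lowest in the proximal mandible (−0.33, −0.30 and −0.27); those of the anaphase-promoting complex lie between −0.07 and 0.06.

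Marker lists, read as a guide to the cell composition of the pieces, differed with genotype in some regions. Of all genes, 12.2% were called higher and 11.1% lower in the proximal maxilla. Called lower were 3.07% in the proximal mandible, 0.468% in the distal mandible and 0.0859% in the distal maxilla. In the proximal mandible the mean deviation of 15 skeletal muscle genes ran from 0.84 to 2.30 in control and from 0.16 to 0.82 in mutant arrays (1 of 15 called lower), that of 12 chondrocyte genes from −1.20 to 0.79 and from 1.16 to 1.57 (0 of 12 called, and 0 at an unadjusted p under 0.05), and that of 10 endothelial genes from 0.04 to 0.19 and from −0.12 to 0.01 (3 of 10 called lower). In the proximal maxilla 10 of 15 muscle genes rose (−2.03 to −0.80 in control, −0.21 to 2.04 in mutant), 8 of 10 macrophage genes rose (−0.34 to −0.27, and 0.20 to 1.06), 5 of 10 endothelial genes rose and 1 fell (−0.13 to −0.03, and 0.00 to 0.32), 9 of 12 chondrocyte genes fell, 7 of 13 epithelial genes rose and 4 fell, 7 of 11 neuron genes fell (1.84 to 2.11, and −0.62 to 1.37) and 6 of 7 olfactory and nasal genes fell (2.31 to 2.46, and −1.26 to 1.75). In the distal mandible muscle genes ran from 0.86 to 1.71 in control and from −0.65 to 0.21 in mutant arrays, with 1 of 15 called lower. The distal maxilla had no marker list that was separate between genotypes, and 1 of 10 endothelial genes was called lower there. The part of cell composition in the falls of the mitotic genes was not tested. With the nasal and muscle means as covariates 0 of the 35 and 4 of all genes tested were called in the proximal maxilla. The median of the 35 was then −0.065. Both means were separate between genotypes there, so that fit cannot tell composition from genotype. Without the 3 mutant maxilla arrays low in nasal markers the median there was −0.16, with only mutant array 3 left. With the same covariates 32 of the 35 were called in the proximal mandible, where muscle genes were also separate. The share of all genes called in that fit is not given here, so the 32 are not read as a test of composition.

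Of 10 neural crest mesenchyme markers 8 were above the array median in all 24 arrays, and their mean deviation overlapped between genotypes in each region; 4 of the 10 were called higher and 1 lower in the proximal maxilla, and 0 in the other 3 regions. Tgfbr2 itself read 11.52 to 12.12 in control and 12.16 to 12.56 in mutant arrays; the sources used here do not say whether its probe set lies in the deleted exons, so this level does not check the labels. Array medians lay between 6.93 and 7.0.

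The counts moved when single arrays were left out, and they are given without the share of all genes called in each fit. For the proximal mandible limma called 7 of the 35 without mutant array 1, 8 without control array 3 and 13 without control array 1, and 0 when the 6 arrays of the region were fitted alone. For the proximal maxilla it called 3 without mutant array 1, 4 without mutant array 2 and 5 without control array 1 or 3, and 1 when the 6 arrays were fitted alone. In the average of regions it called 1 without the mutant pieces numbered 3. Between control jaws it called 2 without proximal mandible array 1, and 3 without distal mandible array 1 or without proximal maxilla array 2.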

How the data were processed

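Gene expression was measured on 24 Affymetrix Mouse430_2 arrays. The authors deposited 1 table of log2 values for 45101 probe sets, made by RMA with Partek 6.6 per the submitters' processing notes. RMA scales arrays to one distribution (medians 6.93 to 7.0), which hides shifts of all RNA. Values ran from 3.44 to 14.8. The depth of an array is its signal, and 3 arrays per group limit the precision.

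Probe sets with 1 gene symbol in the platform annotation (34945; 932 had several and 9211 had none) were kept, 1 per gene by highest mean. Genes above the array median in at least 3 arrays were tested. With lmFit and eBayes, limma 3.58.1 (R 4.3.3) fitted 8 group means to all 24 arrays, with Benjamini-Hochberg adjustment and a threshold of 0.05. The average of regions used 6 means over arrays that share genotype and number. The other comparisons took all 24 arrays as separate samples, though pieces of 1 number may share an embryo. The fits were tested on simulated data. In the mandible, deviations from the group means correlated above 0.1 in all same-numbered pairs of mutant and control (0.15 to 0.51 distal, 0.30 to 0.32 proximal), and not all maxilla pairs passed. This is a hint of pairing from the data, not the labels. Distal mandible control array 1 also correlated at 0.13 with mutant array 2. The fit with the number as a block is given beside the mandible results. Its number term is shared by all 24 arrays, maxilla included, so it does not pair mandible arrays alone.

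The genes, role groups, cell cycle lists, marker lists and alternatives were chosen with earlier results of these data known. By the rule for named genes, values in each array were given for genes called in any comparison and the 3 largest differences per region, and each other list gave up to 4 called genes per comparison. Alternatives changed 1 choice at a time (filter, probe set, scaling, weights, blocks, covariates, arrays left out). Promoter windows are RefSeq's (GRCm38.p6), the first listed for each protein-coding gene.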

Additional observations from a re-analysis of the deposited data

Results flagged for a closer look

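Ect2 was the single result that stood out, because its mutant effect differed between jaws by an interaction contrast. The difference, mandible minus maxilla, was 0.37 (limma, Benjamini-Hochberg adjusted p = 0.0242). The regional values were −0.39 in distal and −0.48 in proximal maxilla, against −0.00 in distal and −0.14 in proximal mandible, and the mutant values were lower without overlap in 3 of the 4 regions. Without the 3 mutant maxilla arrays low in nasal markers, which leaves only mutant array 3 in the proximal maxilla, the difference was 0.22. With nasal and muscle marker means as covariates the difference was 0.10 (limma adjusted p = 0.716). Over the other alternatives run the adjusted p stayed below 0.05. The cause was not tested.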

How the results depend on the processing

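In the proximal mandible each gene tested was below 0 in all alternatives run, and 25 were called as reported. The count was 11 with the probe set of largest SD per gene (33 genes tested), 0 with the 6 arrays alone and 7 to 25 with 1 array left out. In the proximal maxilla the median was −0.16 without the 3 arrays low in nasal markers, which leaves only mutant array 3 there. The count there (10 called) was 4 with the largest SD, 16 with array weights and 1 with the 6 arrays alone. It was 0 with marker covariates (median −0.065, 4 of all genes called), and 3 to 9 with 1 array left out. In the distal maxilla (0 called) it was 2 with quantile normalization, 2 with median centring, 11 with array weights, 1 with covariates, and 0 to 2 with 1 array left out. In the distal mandible (0) it was 5 with array weights and 0 with any array left out. In the average of regions (0) it was 5 with array weights, 2 with an intensity trend and robust prior, 35 with 24 separate arrays, 32 without the 3 arrays, which also takes arrays as separate, and 0 to 1 with 1 unit left out. The jaw interaction (1) had 5 with array weights and 0 with covariates. The F test (0) had 6 with array weights, 1 with the intensity trend, and 0 to 1 with 1 array left out. Between control jaws (5) it was 3 with means of probe sets, 2 with the largest SD, 11 with quantile normalization, 12 with median centring, 16 with array weights, 0 with covariates, and 2 to 5 with 1 array left out. The cause was not tested for these changes. Apart from the covariates in the proximal maxilla, these counts stand without the share of all genes called in the same fit.

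In the maxilla, mutant and control arrays of 1 number share only that number: their deviations correlated between −0.01 and 0.35, above 0.1 in 2 of 3 distal and 1 of 3 proximal pairs, and 5 of 6 distal and 3 of 6 proximal arrays correlated best with their own number, a hint from the data, not the design. With the replicate block as a fixed term, 7 genes were called in distal maxilla, 18 in proximal maxilla, 2 in distal mandible, 33 in proximal mandible, 1 in the average, 2 in the jaw interaction, 5 in the F test and 9 between control jaws. As a random block of genotype and number the replicate block gave 1 in the distal maxilla, 21 in the average, 2 in the jaw interaction, 6 in the F test, 9 between control jaws and 1 between control ends. Shares of all genes called are not given here for these fits.

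Signs changed for some genes, in values close to 0 for the most part. With means of probe sets, differences were Cdc25c 0.0086 and Bub1 0.081 in the distal mandible. With the probe set of largest SD, differences were Bub1 0.049, Kif2c 0.059, Cenpf 0.020 and Smc2 0.0084 in the distal maxilla, Bub1 0.17 and Kif2c 0.038 in the proximal maxilla, Cdc25c 0.036, Bub1 0.21 and Anln 0.034 in the distal mandible, Bub1 0.046 in the average of regions, Cenpf 0.10 between control jaws. With array weights, differences were Aurkb 0.036 and Espl1 0.028 in the proximal maxilla, Kif11 0.0023 and Ect2 0.014 in the distal mandible. Without the 3 arrays, differences were Smc4 0.023 and Anln 0.015 in the proximal maxilla. With covariates, differences were Ccnb2 0.015, Cdk1 0.11, Aurka 0.085, Ttk 0.091, Prc1 0.020, Smc2 0.025, Smc4 0.053, Anln 0.082 and Mybl1 0.43 in the proximal maxilla, Cenpf 0.093 and Ect2 0.19 between control jaws. With 1 array left out, Anln in the proximal maxilla ran from −0.060 to 0.0066, and in the distal mandible Cdc25c from −0.12 to 0.043, Kif2c from −0.073 to 0.023, Kif11 from −0.071 to 0.046, Smc4 from −0.058 to 8.3e-05, Ect2 from −0.018 to 0.023.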
